A study of Drosophila melanogaster with 18 samples.

Results

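The exon records of X-linked genes that FlyBase lists by a CG number alone were examined for sex bias. A CG number is the identifier a Drosophila gene carries until it is given a name. A record stands for an annotated exon of a gene, and it was taken as a member when its chromosome was X and the gene's symbol was CG followed by digits. The rule found 4448 records of 1002 genes, of 87508 records of 17753 genes in all and of 14475 records of 2673 genes on the X. All 1002 genes were protein coding in the reference annotation, and the members had a median of 3 records per gene. They were set against the 16557 records of 3801 CG-numbered genes on arms 2L, 3L and 3R and against the 10027 records of 1671 other X-linked genes.

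The counts came from RNA-seq of whole Drosophila pupae at 48 hr after puparium formation (APF), in 18 libraries. Translating ribosome affinity purification (TRAP) recovered ribosome-bound mRNA through a GFP-tagged ribosomal protein, RpL10A, that was driven by fru P1-Gal4, a driver under the P1 promoter of fru. Total mRNA was the input of that purification, taken from the lysate. There were 5 libraries of each fraction from males and 4 of each from females. The animals of every group were w/(w or Y) and carried P[w+mC, UAS-Gal4] opposite the tagged-ribosome element P[w+mC, UAS-GFP::RpL10A] together with a single copy of the driver (fru P1-Gal4/+), so the groups compared differed in sex or in fraction and not in transgenes. Each library pooled about 1000 sexed pupae.

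Male Drosophila carry a single X chromosome. The male-specific lethal complex raises transcription from that X so that its output comes near that of the pair in females, and genes whose expression is confined to the testis are known to be scarce on the X. Sex bias among X-linked genes is therefore read against the autosomes, and in whole animals it takes in the gonads as well as the nervous system. In these bulk samples fewer cells of a type and less RNA per cell cannot be told apart.

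The libraries held between 24901633 and 67491630 counts. Levels are given as RPM, the counts per 1000000 exon-record counts of a library, and since a record's RPM rises with its length, levels of different genes are compared only per kb. Marker lists of other cell types differed between the sexes. The 12 neuronal markers summed to 716 to 1022 RPM in male and 1066 to 1654 RPM in female total mRNA, and in TRAP to 3053 to 6320 and 4371 to 6425 RPM. The 8 muscle markers summed to 7509 to 10075 RPM in male and 19205 to 22879 RPM in female total mRNA, which did not overlap, and in TRAP to 7370 to 16873 and 15217 to 21048 RPM. The 8 fat body markers in TRAP summed to 4178 to 13569 RPM in males and 12730 to 24059 RPM in females. In total mRNA they summed to 1303 to 1684 and 1943 to 2220.5 RPM, so they stood higher in TRAP in both sexes, as the neuronal markers did. The 5 glial markers in total mRNA summed to 372 to 422 RPM in males and 211 to 222 RPM in females. The 11 genes listed as female germline and follicle markers were nos, vas, osk, bcd, otu, ovo, orb, Vm26Aa, Yp1, Yp2 and Yp3. All but nos (10 genes) were found, and at most 3 of them exceeded 2 RPM in every library of any group. The sums of this list were higher in males, so it did not mark the female libraries here. These sums were 316 to 335 RPM in male and 42.6 to 51.0 RPM in female total mRNA, and in TRAP 249 to 276 and 59.3 to 79.8 RPM. The part of these cell types in the sex bias of the members was not tested. The 26 male germline markers summed to 13818 to 17296 RPM in male total mRNA and 5548 to 17367 RPM in male TRAP. In the female libraries the same markers were low but unequal. Female total mRNA 2, 3 and 4 held 145.5, 242.7 and 155.1 RPM and female total mRNA 5 held 9.57 RPM, while female TRAP 2, 3, 4 and 5 held 85.0, 118.9, 65.5 and 18.9 RPM. These traces were 0.98% to 1.64% of the male mean in female total mRNA 2 to 4 against 0.06% in replicate 5. Their part in the values of the male-biased members described below was not tested.

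The share of CG-numbered counts that came from the X was first compared between libraries. In total mRNA the X gave 14.1% to 14.9% of the CG-numbered counts of the 4 arms in males and 23.6% to 24% in females. In TRAP the shares were 16.3% to 21.7% in males and 27.6% to 28.9% in females. The sexes did not overlap in either fraction. Male TRAP 1 had the lowest X share of the male TRAP libraries and the highest summed level of male germline markers, and the part of those markers in the share was not tested.

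The share of counts is set by the most abundant transcripts, so the same comparison was made on records present everywhere. Over the 933 member records and 2968 arm records that exceeded 2 RPM in all 18 libraries, the median log2 RPM of the X records minus that of the arm records was -0.08 to -0.04 in male total mRNA and 0.22 to 0.27 in female total mRNA. In TRAP it was 0.06 to 0.13 in males and 0.28 to 0.35 in females. The same records entered in every library, so that their lengths cancel in this comparison. Every female library lay above every male library within each fraction, and every TRAP library lay above every total mRNA library of its sex. Among commonly detected CG-numbered records, those of the X thus stood lower in male libraries relative to the autosomes than in female ones.

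**Figure D1:**
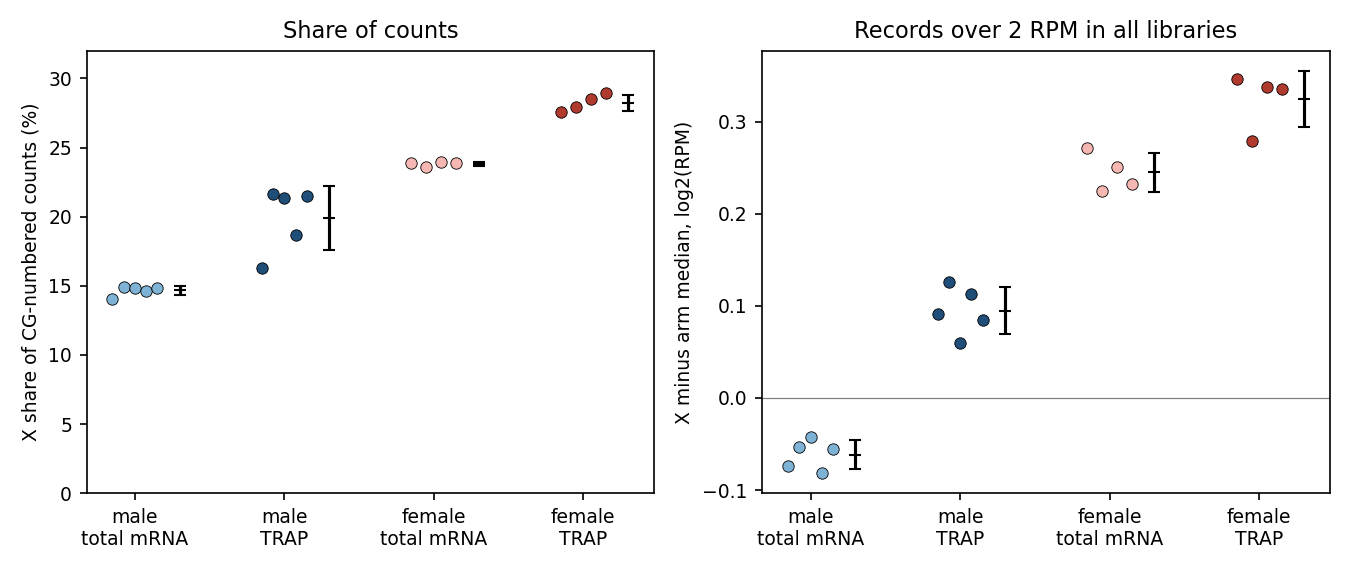
X-linked CG-numbered genes in each library. The left axis gives the percent of CG-numbered counts of X, 2L, 3L and 3R that came from the X, and the right axis the median log2 RPM of X records minus that of arm records over records above 2 RPM in all 18 libraries; points are libraries, bars the mean and SD of the 5 male or 4 female libraries. Male libraries lie at 14.1% to 21.7% and female libraries at 23.6% to 28.9%.

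The number of members detected ran the other way. A library of males had 688 to 704 member genes with a record over 2 RPM, and a library of females had 510 to 535. Of the arm CG-numbered genes, 2433 to 2534 genes were so detected in male and 1692 to 1814 in female libraries. Male libraries thus detected more members, while the members common to all libraries stood lower relative to the autosomes.

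For the test of single records, a minimum of 2 CPM (counts per 1000000, as edgeR computes them) was asked in at least 60% of the 9 libraries of the comparison, and edgeR's exact test was run on all records of the genome that met it, with Benjamini-Hochberg adjustment over them. A gene was counted as biased in a direction when at least 1 record passed a false discovery rate (FDR) of 0.2 in it. Of the 1002 members, 515 had a tested record in TRAP and 506 in total mRNA. The tested records held 84.8% of the counts of male and 97.3% of those of female total mRNA libraries on average, and edgeR scales to these records. Over tested records with means of at least 5 RPM in both sexes, its log2 fold change of male over female stood above the log2 ratio of mean RPM by a median of 0.41 in total mRNA and 0.17 in TRAP. Small changes therefore depend on the scale. A difference between the medians of members and arm genes does not include this shift. Shares of genes called and counts past a fixed log2 fold change can include it, also when members are set against arm genes.

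In total mRNA, female bias was more frequent than male bias among members with this filter, an order that turned with filters asking for expression in 1 sex only. There were 249 female-biased genes (49.2% of the 506 tested) and 202 male-biased genes (39.9%), and 14 genes had records in both directions. Over all 8497 tested genes of the genome, 45.1% were female-biased and 46.9% male-biased. The arm CG-numbered genes leaned the other way, with 37.3% female-biased and 49.4% male-biased of 1711. The X-linked genes with other symbols leaned further to females, with 58.7% female-biased and 37.0% male-biased of 907. The median log2 fold change of male over female was -0.14 for member records and 0.08 for arm records, a difference of -0.218, and all of 2L, 3L and 3R had higher medians than the members (0.02, 0.13 and 0.07).

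In TRAP the order was the same and the shares were smaller. There were 162 female-biased members (31.5% of 515) and 140 male-biased members (27.2%), with 2 genes in both directions, against 23.5% and 30.4% of all 8763 tested genes. Of the 1746 arm genes 23.2% were female-biased and 34.4% male-biased, and of the 948 other X-linked genes 30.5% and 24.5%. The medians were -0.05 for member records and 0.05 for arm records, a difference of -0.105. The arms were not alike, since 2L had a median of -0.01 and 26.9% female-biased genes while 3L and 3R had medians of 0.09 and 0.06 and shares of 21.6% and 21.9%.

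The male-biased counts rest on the filter. Leaving out any 1 of the 4 female libraries allowed records over 2 CPM in the 5 male libraries alone to be tested, and male bias was then the more frequent direction. In TRAP 282 to 297 members were male-biased and 140 to 168 female-biased, and in total mRNA 353 to 357 and 333 to 350. Asking for 2 CPM in every library of 1 sex gave 306 male-biased and 191 female-biased members in TRAP and 359 and 353 in total mRNA, and with no filter they were 414 and 294, and 518 and 393. Without male TRAP 5 the TRAP counts were 132 and 128. When records had to exceed 2 CPM in every library of both groups, an alternative chosen after seeing the data, there were 147 female-biased and 123 male-biased members in TRAP and 225 and 166 in total mRNA. That filter leaves out records high in males and low in females.

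**Figure D2:**
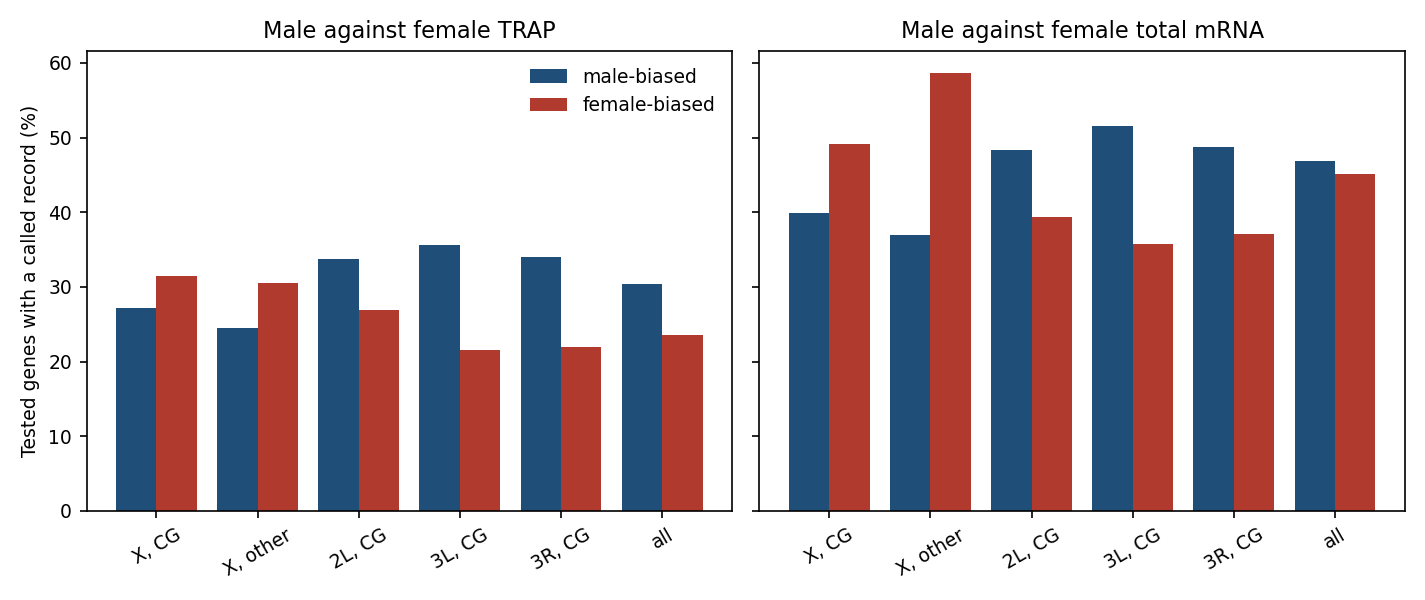
Percent of tested genes with at least 1 male-biased (blue) or female-biased (red) record at FDR under 0.2, for X-linked CG-numbered genes, other X-linked genes, CG-numbered genes of 2L, 3L and 3R and all genes. With 2 CPM asked in at least 60% of the libraries, female bias exceeds male bias for the X-linked CG-numbered genes in TRAP (31.5% against 27.2%) and in total mRNA (49.2% against 39.9%), and male bias exceeds female bias on each of the 3 arms.

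The shift was small for most members. From the lower to the upper quartile, the member records ran from -0.37 to 0.26 in TRAP and from -0.45 to 0.52 in total mRNA, against -0.25 to 0.46 and -0.28 to 0.99 for the arm records. Changes of at least 1 on the log2 scale were fewer and mostly male-biased. In total mRNA 103 members rose in males by that much and 22 in females, and in TRAP 49 and 19. The shift between the scales, 0.41 in total mRNA and 0.17 in TRAP, raises the male and lowers the female count, so this split also depends on the scale. Among arm genes the counts were 510 and 26 in total mRNA and 279 and 47 in TRAP, and among all genes 2181 and 135 of 8497 and 1136 and 191 of 8763. Relative to the genes tested and on this scale, such changes towards females were more frequent among members than on the arms. Those towards males were less frequent, as a description with no test of the lists.

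**Figure D3:**
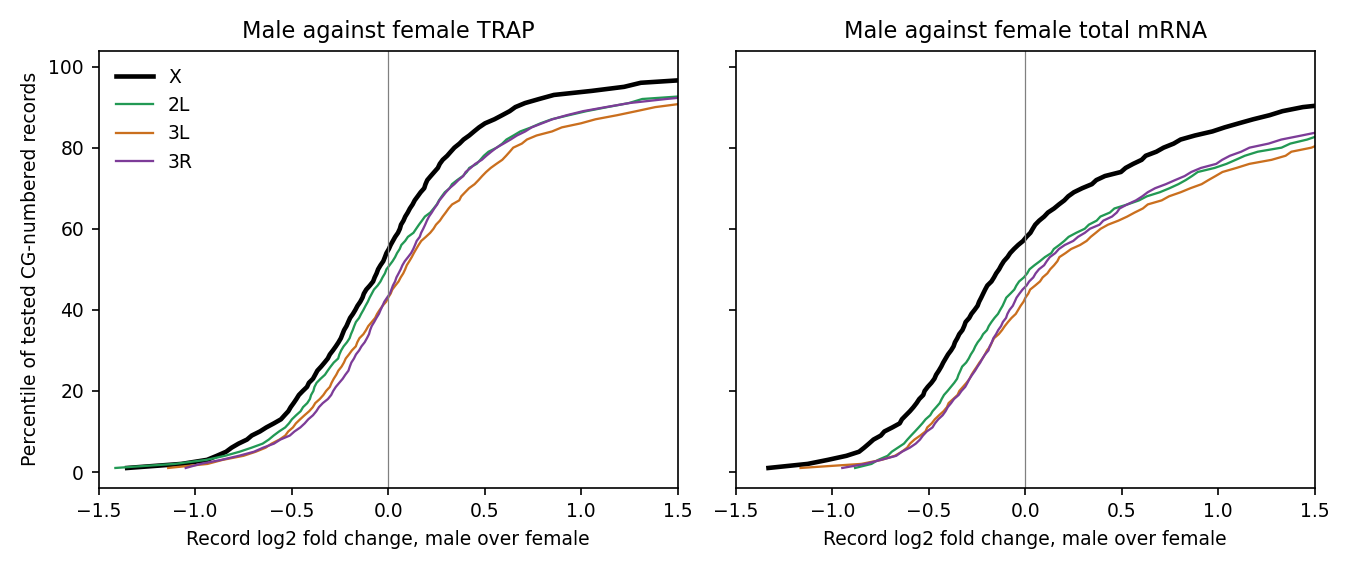
Percentiles 1 to 99 of the log2 fold change, male over female, of tested CG-numbered records of the X (black) and of arms 2L, 3L and 3R, in TRAP and total mRNA. The X curve lies to the left of the arm curves over most of its length; its medians are -0.05 in TRAP and -0.14 in total mRNA.

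Several of the members named for female bias were female-biased in both fractions. CG13003 had a record of its coding and untranslated sequence at 16849296 to 16849941 on the minus strand of the X (build dm6). It stood at 1.46, 1.85, 2.56, 1.57 and 3.02 RPM in male total mRNA 1, 2, 3, 5 and 6 and at 16.2, 15.2, 12.8 and 10.8 RPM in female total mRNA 2, 3, 4 and 5. In TRAP it stood at 1.2 to 2.16 RPM in males and at 10.9 to 17.6 RPM in females, and the sexes did not overlap in either fraction. The log2 fold change was -2.31 ± 0.20 (SE) in total mRNA and -2.80 ± 0.16 in TRAP, with edgeR adjusted p-values of 2.35e-33 and 1.37e-35. All 5 of its tested records in total mRNA and all 4 in TRAP were female-biased.

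CG34327 and CG12995, each with 1 record and lying within one short stretch of the X, were also higher in females in both fractions. CG34327 (17222968 to 17223815) stood at 5.12, 3.07, 5.22, 2.61 and 4.6 RPM in male and 29.5, 35.1, 29.0 and 25.8 RPM in female total mRNA. CG12995 (17209368 to 17209997) stood at 21.3, 20.4, 27.1, 19.7 and 27.1 RPM in male and 91.0, 100.2, 96.3 and 107.0 RPM in female total mRNA. The groups were separate for both genes. The log2 fold changes in total mRNA were -2.44 ± 0.21 for CG34327 and -1.68 ± 0.11 for CG12995 (adjusted p = 3.64e-40 and 4.62e-35), and those in TRAP were -2.35 ± 0.24 and -1.43 ± 0.16 (adjusted p = 3.56e-22 and 6.37e-12).

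CG15369, a cystatin-like gene, was tested in TRAP only. Its record at 9216872 to 9217095 stood at 3.17, 8.22, 15.4, 8.52 and 12.3 RPM in male TRAP 1, 2, 3, 5 and 6 and at 23.8, 56.0, 35.5 and 45.5 RPM in female TRAP 2, 3, 4 and 5. In total mRNA it stood at 0.22 to 0.60 RPM in males and 1.69 to 2.52 RPM in females and was not tested there. The TRAP difference was -1.96 ± 0.41 on the log2 scale with an adjusted p of 7.92e-09, and its 3 records moved together.

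CG40485, listed by RefSeq under the synonym FOHSDR and a short-chain dehydrogenase, was named for total mRNA only. Its record at 22961169 to 22962360 stood at 2.19 to 3.47 RPM in male and 11.2 to 16 RPM in female total mRNA, a log2 fold change of -1.85 ± 0.15 (adjusted p = 5.41e-34). In TRAP it stood at 1.18 to 1.83 RPM in males and 3.84 to 5.77 RPM in females, groups that did not overlap although the record did not pass the filter. CG14191 (19081865 to 19082566) stood at 11.7 to 15.9 RPM in male and 54.9 to 56.9 RPM in female total mRNA, a log2 fold change of -1.63 ± 0.06 (adjusted p = 1.63e-53), and at -1.38 ± 0.21 in TRAP (adjusted p = 4.08e-10).

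The remaining members named for female bias were CG32695 and CG2157. CG32695 had all 5 of its tested records female-biased in both fractions, and its record at 9873734 to 9874057 ranged in TRAP from 4.46 to 10.3 RPM in males and from 12.4 to 25.9 RPM in females (log2 fold change of -1.41 ± 0.29, adjusted p = 2.06e-07). CG2157 ranged in TRAP from 3.41 to 4.32 RPM in males and from 10.4 to 15.4 RPM in females (-1.53 ± 0.16, adjusted p = 1.41e-12). Its record overlaps an exon of CG1637 on the opposite strand, and the strand setting of the counting was not stated, so the reads of these genes cannot be told apart.

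Among the tested members, the strongest male-biased ones were transcripts nearly confined to males. The male libraries alone were too few to pass the filter, so entry to the test also took a female library over 2 CPM. The order therefore leaves out untested members, such as CG11106 with TRAP means of 102.9 RPM in males and 0.587 RPM in females. CG1324 stood at 530.6, 435.6, 413.5, 426.2 and 428.4 RPM in male total mRNA 1, 2, 3, 5 and 6 (record 20734744 to 20735730). In female total mRNA 2, 3 and 4 it stood at 4.66, 6.97 and 3.95 RPM, and female total mRNA 5 held 0 counts, which allows up to 0.105 RPM at its depth, counting error only. In TRAP it stood at 591.7, 209.9, 188.1, 351.6 and 161.2 RPM in males and at 1.21, 2.94, 1.26 and 0.104 RPM in females. The log2 fold change was 7.26 ± 0.87 in total mRNA (adjusted p = 2.19e-18) and 8.0 ± 0.67 in TRAP (adjusted p = 1.87e-19).

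The female values of CG1324 moved with the male germline markers, in that replicate 3 was highest and replicate 5 lowest in both fractions, and male TRAP 1 was highest among male TRAP libraries for both. The same held for CG15306 and CG1394. CG15306 (10330160 to 10331488) stood at 238.6 to 267.7 RPM in male total mRNA and at 2.17, 4.02, 2.81 and 0 RPM in female total mRNA 2, 3, 4 and 5. CG1394 (11169811 to 11170678) stood at 320.1 to 365.7 RPM in male total mRNA and at 3.49, 5.43, 2.94 and 0.035 RPM in the female libraries. Their log2 fold changes were 7.20 ± 0.69 and 7.24 ± 0.76 in total mRNA (adjusted p = 1.5e-22 and 1.07e-22) and 7.26 ± 0.56 and 7.03 ± 0.60 in TRAP (adjusted p = 2.65e-22 and 1.54e-17).

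CG8565, listed by RefSeq under the synonym SPRK2, with CG15200 and CG1999, passed the filter in total mRNA only. In male total mRNA they stood at 232.5 to 279.2, 105.7 to 141.4 and 123.2 to 144.0 RPM. Each had 0 counts in female total mRNA 5 and 0.96 to 4.02 RPM in the other female total mRNA libraries. The log2 fold changes were 7.20 ± 0.70 for CG8565, 7.28 ± 0.49 for CG15200 and 7.28 ± 0.52 for CG1999 (adjusted p = 1.98e-22, 3.49e-34 and 5.61e-31). In female TRAP they stood at 0.0148 to 1.32 RPM. Their fold changes, like those of CG1324, rest on the low female values in replicates 2 to 4, and the part of the germline traces in them was not tested.

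CG3323, CG12470 and CG15296 were the other members named for male bias in TRAP. CG3323 (5302988 to 5305254) stood at 44.2 to 85.8 RPM in male TRAP and at 2.14, 2.1, 1.56 and 1.11 RPM in female TRAP 2, 3, 4 and 5. CG12470 (308090 to 308935) stood at 39.7 to 73.6 RPM in males and at 1.5, 2.14, 2.2 and 1.51 RPM in females. CG15296 (10565842 to 10566498) stood at 17.8 to 37.2 RPM in males and at 1.47, 0.94, 2.50 and 2.03 RPM in females. The log2 fold changes were 5.38 ± 0.31, 5.10 ± 0.26 and 4.05 ± 0.34 (adjusted p = 2.21e-48, 3.95e-53 and 1.28e-28), and in female TRAP 5 none of them was under 1.11 RPM. In female total mRNA 5, however, they stood at 0.21, 0.035 and 0.105 RPM, below the other female total mRNA libraries.

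**Figure D4:**
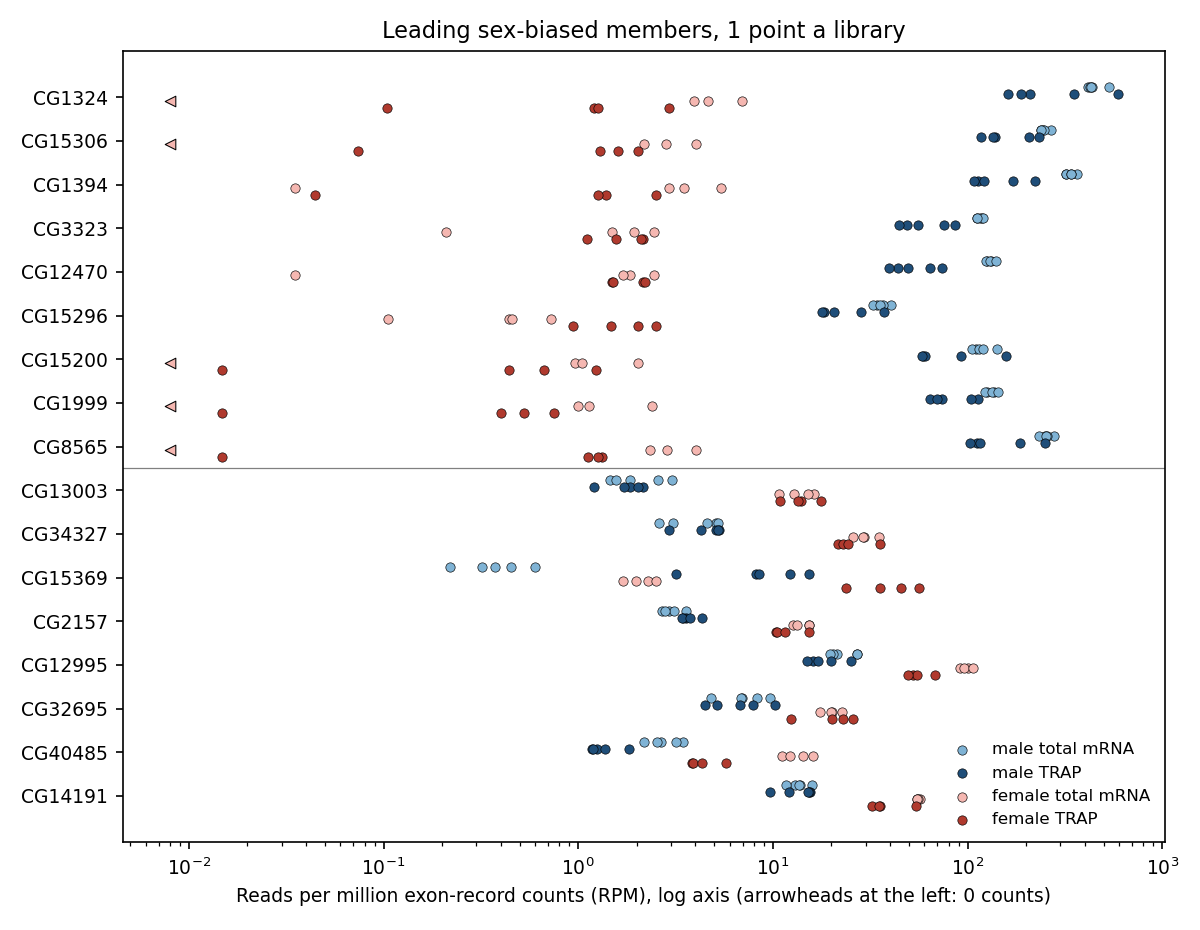
RPM of the leading sex-biased members in each of the 18 libraries on a log axis, male-biased genes above the line and female-biased genes below it; arrowheads mark libraries with 0 counts. The female values of CG1324, CG15306 and CG8565 spread over more than a decade, with replicate 5 at 0 to 0.10 RPM, while CG13003, CG34327 and CG12995 are tight within each sex.

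Male bias was also present among members with a record over 2 RPM in every library of both sexes, some of them only narrowly over it in females. These genes were singled out after their values were seen, as the leading male-biased records over 2 RPM in all 18 libraries. CG5877 (15294337 to 15296644) stood at 60, 53.9, 58.4, 58.5 and 52.6 RPM in male and 4.3, 3.95, 4.08 and 3.5 RPM in female total mRNA, a log2 fold change of 4.26 ± 0.07 (adjusted p = 3.93e-193), and at 3.46 ± 0.24 in TRAP (adjusted p = 1.56e-34). CG12118 and CG10958 had log2 fold changes of 4.03 ± 0.07 and 3.38 ± 0.08 in total mRNA and 2.79 ± 0.27 and 2.31 ± 0.23 in TRAP. In female total mRNA they stood at 2.88 to 3.57 and 5.86 to 7.5 RPM.

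CG1640, an alanine aminotransferase gene, stood at 50.7 to 59.2 RPM in male and 6.99 to 9.83 RPM in female total mRNA (record 13378547 to 13379370). Its log2 fold change was 3.11 ± 0.12 in total mRNA (adjusted p = 4.2e-103) and 2.04 ± 0.25 in TRAP (adjusted p = 1.22e-13). CG44774 stood in TRAP at 204.6 to 323.7 RPM in males and 61.6 to 77.2 RPM in females (record 4929374 to 4929988, 1.98 ± 0.21, adjusted p = 1.04e-13). Within the 438 member genes with a tested record over 2 RPM in all 18 libraries, 52.1% were female-biased and 34.5% male-biased in total mRNA, against 39.8% and 45.7% of 1429 arm genes. In TRAP the shares were 31.1% and 22.8% against 21.6% and 32.8%. Asking for more than 2 RPM in every library removes the records that are high in males and low in females, so these shares describe the commonly expressed members and not all of them.

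Many members with strong male expression never entered the test. In total mRNA, 194 members without a tested record had a record over 2 CPM in every male library, against 21 in every female library, and in TRAP the numbers were 171 and 10. The former are called male-only here for short, although most had traces in female libraries. The other untested members were 263 genes with counts and 18 without in total mRNA, and 293 and 13 in TRAP. As a share of all genes the male-only members were 19.4% in total mRNA and 17.1% in TRAP, close to the 19.6% and 19.4% of the arm CG-numbered genes and above the 5.39% and 4.67% of the other X-linked genes and the 11.5% and 9.93% of all genes. By records the members had 9.33% of 4448 against 14.1% of 16557 for the arms and 8.05% of all records in total mRNA, and 6.38%, 10.5% and 4.95% in TRAP.

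The male-only members also stood at lower levels per kb than the male-only arm genes. Their highest record had a median of 28.1 RPM per kb over the 5 male total mRNA libraries (quartiles of 13.2 and 50.9), against 41.9 RPM per kb for the 746 arm genes (18.2 and 80.1). In TRAP the medians were 19 RPM per kb for 171 members (quartiles of 11.9 and 34.7) and 29.3 RPM per kb for 739 arm genes (13.8 and 61.2). Male-only genes among the other X-linked genes stood lower still. Their medians were 21 RPM per kb for 90 genes in total mRNA and 15.3 RPM per kb for 78 genes in TRAP. The ranges between quartiles overlapped in both fractions. The filter asked 2 CPM of a record whatever its length. In total mRNA the members' records had a median length of 652 bases against 453.5 for the arm genes. Among tested genes, 23 members (4.55%) and 151 arm genes (8.83%) were male-biased by a log2 fold change of at least 4 in total mRNA, and 7 (1.36%) and 62 (3.55%) in TRAP. The other X-linked genes lay below the members, with 17 (1.87%) in total mRNA and 3 (0.316%) in TRAP. The share over all tested genes was not taken, so it is not known whether the members differ from the genome in this.

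CG32591, CG15892, CG11068 and CG13008 were the male-only members named in total mRNA, by the mean RPM of a record, which rises with its length and gives no order between genes. CG32591 (14927202 to 14928944) stood at 149.3, 147.3, 146.5, 152.8 and 147.5 RPM in male total mRNA and at 0.96, 1.79, 1.08 and 0 RPM in female total mRNA 2, 3, 4 and 5. CG11068 and CG13008 stood at 106.8 to 135.6 and 111.8 to 124.1 RPM in males and at 0.035 to 1.63 and 0.035 to 1.54 RPM in females. In female total mRNA replicate 3 was highest and replicate 5 lowest for all of them, as for the male germline markers. In female TRAP this order held for CG13008 only. CG32591 and CG11068 were highest in replicate 2 there (0.72 and 0.83 RPM), and CG15892 was lowest in it (0.447 RPM). CG15892 stood at 115.4 to 131.0 RPM in males and 0.32 to 1.79 RPM in females, and its record overlaps mldr on the opposite strand. In TRAP the rule named CG8565, CG11106, CG32548 and CG15200, at 103.5 to 250.9, 69.2 to 151.2, 76.1 to 140.1 and 58.5 to 158.4 RPM in males and at most 1.64 RPM in any female TRAP library.

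Summed over their untested records, the male-only members of total mRNA gave 7487 to 8251 RPM in male total mRNA. In female total mRNA 2, 3, 4 and 5 they gave 102.6, 144.5, 107.3 and 30.3 RPM, or 1.32%, 1.86%, 1.38% and 0.39% of the male mean. In female TRAP they gave 120.1, 121.1, 115.3 and 86.2 RPM. The part of the male germline traces in these female values was not tested.

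**Figure D5:**
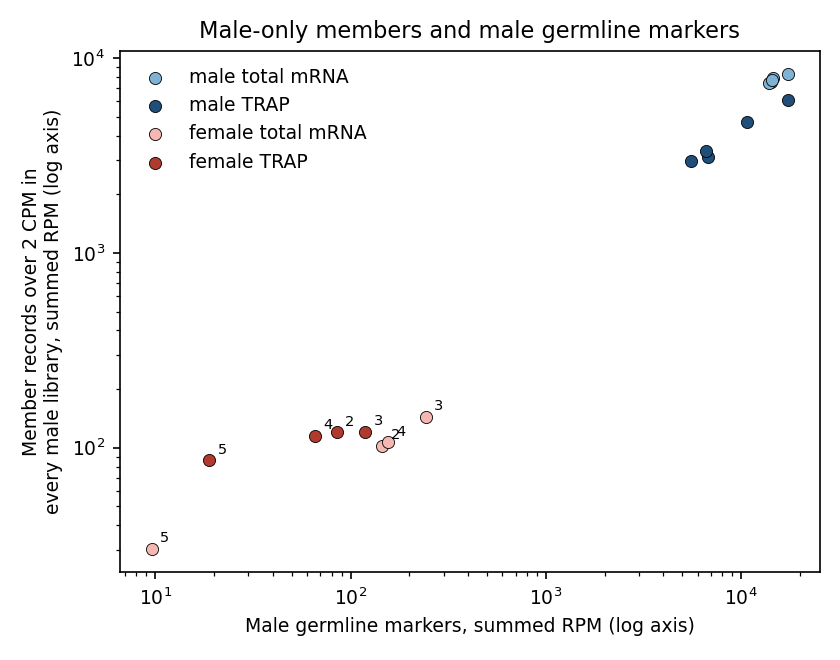
Summed RPM of 26 male germline markers (horizontal) and of the member records over 2 CPM in every male total mRNA library whose genes had no tested record (vertical), on log axes, with 1 point a library and female points numbered by replicate. Male libraries lie at 2972 RPM or more on the vertical axis, and female total mRNA 5 is lowest on both axes at 9.57 and 30.3 RPM.

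Most members biased in TRAP had the same bias in total mRNA. Of the 140 members male-biased in TRAP, 116 (82.9%) were male-biased in total mRNA, which is 57.4% of the 202 male-biased there. Of the 162 female-biased in TRAP, 137 (84.6%) were female-biased in total mRNA, which is 55.0% of the 249 there. A record of the opposite bias was found in total mRNA for 12 of the male-biased and 8 of the female-biased genes. Calls were frequent in total mRNA, with a male-biased share of 39.9% and a female-biased share of 49.2% among the 506 members tested. This overlap was not taken for the arm genes or for all genes, so it is not known to be particular to the members. Total mRNA was the input of the purification, so the fractions may not be independent.

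Runs of neighbouring members with the same bias were listed along the X. A run takes tested members that follow each other with no member of another call between them. The runs were chosen after their values were seen, no test was made of their length and no comparison with the arms, and 49.2% of all tested members were female-biased in total mRNA. There were 11 female-biased genes in a row from CG32695 to CG15312 (9872382 to 10070868), 11 from CG1463 to CG32645 (12609977 to 13153462) and 10 from CG9522 to CG9095 (14846472 to 15163225). Parts of these runs were also found in TRAP, in which 7 genes from CG1468 to CG15252 and 7 from CG4404 to CG32645 were female-biased in a row. The longest male-biased run had 6 genes, from CG2076 to CG11106, in total mRNA.

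In the first run, the record of CG9686 at 9879870 to 9880535 ranged in TRAP from 56.3 to 305.3 RPM in males and from 219.8 to 500.6 RPM in females, groups that overlapped (log2 fold change of -0.92 ± 0.44, adjusted p = 0.0208). In total mRNA it stood at 14.7 to 17.3 RPM in males and 28.9 to 32.7 RPM in females, which were separate (-0.51 ± 0.06, adjusted p = 8.29e-07). CG43386 stood at 47.7 to 58.9 RPM in male and 116.7 to 131.6 RPM in female total mRNA (-0.82 ± 0.05, adjusted p = 6.63e-12) and was female-biased in TRAP by -0.95 ± 0.14 (adjusted p = 2.67e-05). CG32694 was female-biased in total mRNA, with all 6 tested records, and had no biased record among 11 in TRAP. In the second run CG4404 stood at 17.8 to 20.3 RPM in male and 47.4 to 52.7 RPM in female total mRNA (-1.02 ± 0.04, adjusted p = 2.66e-24).

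The third run holds genes of the GMC oxidoreductase family, flavoenzymes that lie in a cluster on the X. Of 9 members of the family listed after the values were seen, 4 had a tested record, and all 4 were female-biased in both fractions. The list left out CG45064 and CG45065, whose record lies between CG9518 and CG9514, so the count covers the listed genes only. CG9518 stood at 5.86, 6.57, 6.64, 6.3 and 7.51 RPM in male and 18.7, 18.6, 17.9 and 18.2 RPM in female total mRNA (record 14862989 to 14866473, log2 fold change of -1.07 ± 0.05, adjusted p = 2.1e-24). CG9514 stood at 6.28 to 7.16 RPM in males and 17.1 to 20.8 RPM in females (-1.08 ± 0.07, adjusted p = 3.23e-23). CG9522 and CG9503 differed by less, with -0.25 ± 0.06 and -0.45 ± 0.15 (adjusted p = 0.033 and 0.0098). In TRAP CG9518 and CG9514 were at -0.89 ± 0.10 and -0.77 ± 0.16 (adjusted p = 9.33e-06 and 0.000726). CG9522 and CG9503 were at -0.61 ± 0.26 and -0.37 ± 0.13 there (adjusted p = 0.0321 and 0.177), and the sexes overlapped in RPM for both. The untested CG12539, CG12398, CG9512, CG9521 and CG9519 had group means of at most 1.68 RPM. CG45064 and CG45065, in the same run, share their tested record and count as 1 measurement, which was not called in TRAP (-0.16 ± 0.09, adjusted p = 0.571).

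The share of biased members was also taken by position and by the part of the gene. In windows of 5 Mb, the share of female-biased members in total mRNA was 44.9%, 56.7%, 52.5%, 45.3% and 45.2% from 0 to 25 Mb, and that of male-biased members 36.4%, 37.5%, 37.6%, 44.6% and 45.2%. In TRAP the female-biased shares were 24.8%, 31.8%, 37.0%, 31.3% and 35.5%, and the male-biased 27.5%, 28.7%, 24%, 25.2% and 38.7%. Members with a tested record of coding sequence only had one that was female-biased in 32.6% and male-biased in 42.4% of 144 genes in total mRNA. The shares were 48.2% and 38.0% of 498 genes for records of coding and untranslated sequence, and 62.5% and 21.9% of 32 genes for untranslated sequence only. In TRAP the female-biased shares were 26.7%, 29.3% and 21.4% and the male-biased 21.7%, 25.1% and 21.4%. The records of untranslated sequence in total mRNA had a median log2 fold change of -0.27 and those of coding sequence 0.01. Neither split was made for the arm genes or for all genes, so these differences cannot be called particular to the members.

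Some members had records of both directions, so their sex bias differed within the gene. CG32795, a gene of the TMEM120 family of membrane proteins, had 2 tested records, 1 in each direction, in both fractions. Its coding record at 2783767 to 2784146 stood at 4.88, 4.94, 5.8, 5.52 and 5.5 RPM in male and 3.17, 2.73, 3.46 and 3.36 RPM in female total mRNA (1.16 ± 0.07, adjusted p = 3.22e-17). Its record at 2782906 to 2783425 stood at 2.84, 2.78, 2.79, 2.43 and 3.58 RPM in males and 8.51, 7.97, 7.97 and 6.33 RPM in females (-1.0 ± 0.12, adjusted p = 3.73e-11). In TRAP the same records were at 0.38 ± 0.16 (adjusted p = 0.192) and -0.84 ± 0.11 (adjusted p = 3.91e-05), and the first of these did not hold when male TRAP 1, 2, 3 or 5 or any 1 female library was left out (0.21 to 0.42 on the log2 scale).

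CG14200, CG43736 and CG14435 were of this kind in total mRNA, among the 14 of 506 members so called there. Over all genes 470 of 8497 had records of both directions in total mRNA and 52 of 8763 in TRAP, and of the arm genes 49 of 1711 and 11 of 1746. CG14200 was at 0.69 ± 0.15 over its coding record (19511397 to 19515644, adjusted p = 6.63e-06), where the sexes overlapped in RPM (11.2 to 18.2 in males and 10.6 to 14.4 in females), and -0.51 ± 0.06 over its last one (19515913 to 19518402, adjusted p = 1.24e-06). CG43736 was at 1.28 ± 0.11 over the record at 6869261 to 6870991 (adjusted p = 1.56e-15) and -0.53 ± 0.18 over that at 6878546 to 6881580 (adjusted p = 0.00188). CG14435 was at 0.49 ± 0.12 and -0.50 ± 0.15 over neighbouring untranslated records (adjusted p = 0.0103 and 0.000272), and its male-biased record overlapped between the sexes in RPM, at 1.91 to 3.08 in males and 1.98 to 2.71 in females. That call was lost when any 1 female library was left out (0.09 to 0.26). Its mean RPM was 2.37 in males and 2.25 in females, so most of this log2 fold change is the shift of 0.41 between the scales.

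CG33639, a gene of the rhodopsin-like family of G protein-coupled receptors, was the other such member in TRAP. It had 2 male-biased and 2 female-biased records among 7, with 0.51 ± 0.10 at 18220662 to 18220828 (adjusted p = 0.0533) and -0.44 ± 0.16 at 18210812 to 18213117 (adjusted p = 0.072, and -0.37 and no longer called without male TRAP 5). CG13004 and CG46306 shared the records at 16827676 (2.41 ± 0.07, adjusted p = 2.17e-77) and at 16834612 to 16835520 (-0.40 ± 0.08, adjusted p = 0.0113) on the same strand, so their reads cannot be assigned to either gene and they count as 1 locus.

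Within each sex, TRAP was compared with total mRNA. Fat body markers as well as neuronal markers stood higher in TRAP, so a member higher in TRAP cannot be placed in neurons by this comparison. In males 283 of 687 tested members were higher in TRAP (41.2%) and 313 lower (45.6%), against 42.7% and 49.3% of all 10499 tested genes. The arm CG-numbered genes had 33.6% higher and 57.2% lower of 2452. In females 190 of 510 members were higher in TRAP (37.3%) and 218 lower (42.7%), against 37.7% and 47.3% of all 8558 tested genes and 34.2% and 45.9% of 1694 arm genes. The members' shares higher in TRAP were within 2 percentage points of all genes in both sexes.

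The sex difference in this enrichment, the sex bias in TRAP relative to that in total mRNA, was tested with edgeR's quasi-likelihood F test over all 18 libraries, scaled together. Enrichment was higher in males for 404 of 746 members (54.2%) and higher in females for 146 (19.6%), against 59.8% and 20% of all 11335 tested genes. The split depends on the scaling. With TMM the median of all records was 0.44 and that of member records 0.47 on the log2 scale, and with RLE size factors the medians were 0.07 and 0.11 and the counts of members 170 and 192. Values are therefore read against the median of all records.

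The members with the smallest p-values in each direction kept their call with both scalings. The values given are those with TMM and include its median of 0.44. CG1529, a zinc finger gene, stood at 7.07 to 7.79 RPM in male and 11.1 to 12.8 RPM in female total mRNA but at 8.12 to 10.5 and 7.96 to 10.7 RPM in TRAP, so that the sexes were separate in total mRNA and overlapped in TRAP (interaction of 0.95, adjusted p = 0.000142, and 0.59 with RLE). CG4119 was alike, at 5.16 to 5.82 and 8.22 to 9.21 RPM in total mRNA and 5.5 to 7.8 and 6 to 7.51 RPM in TRAP (0.93, adjusted p = 0.000119, and 0.56 with RLE). CG34348 had an interaction of 1.0 (adjusted p = 5.19e-05, and 0.63 with RLE), and its record overlaps GCS1 on the opposite strand.

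In the other direction, CG42766 had a mean of 7.79 RPM in male and 0.07 to 0.13 RPM in female total mRNA, and stood at 3.97 to 6.44 and 0.74 to 0.97 RPM in TRAP (interaction of -3.39, adjusted p = 1.98e-05). The female total mRNA value rests on 2 to 4 counts per library. CG12535 stood at 13.1 to 15.9 and 0.39 to 0.66 RPM in total mRNA and 8.81 to 12.6 and 3.08 to 5.73 RPM in TRAP (-3.05, adjusted p = 9.12e-06), and its record overlaps Myc on the opposite strand. CG10970 had an interaction of -3.46 (adjusted p = 1.43e-05) and overlaps the antisense RNA asRNA:CR45538. All 3 records stood higher in every male than in every female library of either fraction, by a smaller ratio in TRAP.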

How the data were processed

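The authors aligned single-end reads to dm6 with STAR 2.7.2a and counted them per exon record with featureCounts, and the 18 deposited library tables hold these raw counts. The annotation release and strand setting are not given in the sources used here. Of the member records, 4437 lie at the same coordinates in the reference annotation. A read was counted for every record it touched, since 2506 of 2506 repeated coordinate groups had identical counts. Overlapping records are therefore not independent. The deposited RPM table was not used.

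The members and lists were chosen with earlier results of these data known. Records that exceeded 2 CPM in 60% or more of a comparison's libraries were fitted with edgeR 4.0.16 (R 4.3.3; TMM, common and tagwise dispersion, exact test, Benjamini-Hochberg over all records), and the interaction with its quasi-likelihood F test. The steps were tested on simulated data. SE is that of the difference between group means of log2(CPM + 0.5). Named genes were, per direction, the 6 with the largest log2 fold change (mean of at least 5 CPM, FDR under 0.2, separate groups, no same-strand overlap), the 3 of smallest p in the interaction, up to 6 called in both directions, and the 4 highest male-only genes. The study calls the libraries of a condition biological replicates.

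The same replicate numbers paired the sexes in TRAP, where deviations from the group means correlated at 0.24, 0.33 and 0.17 in replicates 2, 3 and 5. In total mRNA they did not (-0.03, -0.56 and 0.28). Total mRNA was the input of the TRAP purification, but no source used here says that libraries of 1 number share a lysate. Deviations of TRAP and total mRNA of a number correlated at 0.15 to 0.57 in males and -0.27 to 0.20 in females. The alternatives were RLE scaling, TMM from the arms alone, other filters, the quasi-likelihood test, DESeq2 1.42.0, gene-level sums, no overlapping records, the replicate block, an FDR of 0.05, a log2 fold change of at least 1 and each library left out.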

Additional observations from a re-analysis of the deposited data

Results flagged for a closer look

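Among 123 groups of member values examined, 5 values stood far from the rest of their group, where chance gives about 1 in 20. CG1324 was at 530.6 RPM in male total mRNA 1 (531.9 over its longer record) against 413.5 to 435.6 RPM in the other male libraries, and the male germline markers were also highest in that library. CG14191 was at 54.4 RPM in female TRAP 3 against 32.4 to 35.6 RPM. CG42766 was at 6.44 RPM in male TRAP 1 against 3.97 to 4.53 RPM. The median log2 level of X records minus arm records was 0.279 in female TRAP 3 against 0.335 to 0.347 in the other female TRAP libraries, and stayed above every male value.

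The sex bias differed between TRAP and total mRNA, by the interaction test of edgeR, in the 6 members named for it. The interaction was 1.0 for CG34348, 0.93 for CG4119 and 0.95 for CG1529, with the sex bias in TRAP shifted towards males. It was -3.05 for CG12535, -3.46 for CG10970 and -3.39 for CG42766, with male bias smaller in TRAP. These values, with TMM scaling, include a median of 0.44 over all records. With RLE, where that median was 0.07, they were 0.63, 0.56, 0.59, -3.41, -3.84 and -3.75.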

How the results depend on the processing

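Under RLE, TMM from the arms, the quasi-likelihood test and DESeq2 the counts of biased members in both sex comparisons stayed within 1.5 times, and so did the replicate block, which paired same-numbered libraries (TRAP: 145 male-biased and 188 female-biased, median difference -0.101). The block changed no other count by over 1.5 times. Requiring 2 CPM in every library of 1 group gave 306 male-biased and 191 female-biased members in TRAP and 359 and 353 in total mRNA, with median differences of X minus arm records of -0.315 and -1.02. With no filter the members numbered 414 male-biased and 294 female-biased in TRAP (difference -0.206), and 518 and 393 in total mRNA (-0.361). A log2 fold change of at least 1 left 49 and 19 in TRAP and 103 and 22 in total mRNA, and an FDR of 0.05 left 107 female-biased in TRAP. Without overlapping records the differences were -0.0725 and -0.182, with gene-level sums -0.28 in total mRNA. In alternatives chosen after seeing the data, a filter of 2 CPM in every library gave -0.178 there, and with female replicates 2, 3 and 4 left out TRAP had 62 male-biased and 58 female-biased members and the total mRNA difference was -0.183, where the spread came from the male libraries and the lone female library was assumed to vary like them. RLE gave 170 members of higher enrichment in males. All these differences were below 0.

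Male bias was the more frequent direction without any 1 female library, without a filter and with the filter on 1 group. Leaving out 1 library gave, in TRAP, 130 to 297 male-biased and 128 to 175 female-biased members and differences of -0.322 to -0.0908. In total mRNA it gave 194 to 357, 246 to 350 and -1.06 to -0.204. The interaction counts were 289 to 455 and 133 to 202, with 289 and 202 without male TRAP 1 and 455 and 133 without female TRAP 3. Within males 256 to 298 were higher and 288 to 336 lower in TRAP, and within females 175 to 186 and 185 to 221. Records called against the rest of their gene reversed in gene-level sums, which add all records by construction: CG33639 to -0.06 and CG32795 to -0.11 in TRAP, and in total mRNA CG32795 to 0.77, CG14200 to -0.22, CG43736 to -0.36, CG14435 to -0.30 and CG13004 and CG46306 to 1.38. The cause of the other movements was not tested. Depth limits the female side of male-only members, where 3 counts equal 0.044 to 0.12 RPM.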
